A study of Mus musculus with 6 samples.

Results

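The 28 genes described here make cholesterol, sense it and move it through the cell. They were chosen by symbol from the 41079 genes of the tables, as the enzymes of each synthesis step, the proteins that sense sterols and control the sterol regulatory element binding protein SREBP2, and 3 carriers of cholesterol inside the cell. All 28 symbols were found and all 28 passed the filter on low counts, which left 14618 genes for the test. By role they were 8 genes of the mevalonate arm, 3 of the squalene arm, 8 that turn lanosterol into cholesterol, 6 of sensing and 3 of trafficking.

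RNA-seq libraries came from primary microglia of neonatal C57Bl/6N mice aged 1-3 days, 3 from control cultures and 3 from cultures under the optimized condition. In both groups the microglia had been shaken off mixed glia of pooled brains that had been grown in medium with serum and L-929 conditioned medium, a source of M-CSF, and after a brief adhesion in serum they were moved to serum-free DMEM/F12. Only the optimized group was treated with human TGFbeta, human IL34 and CX3CL1, each at 100 ng/mL by the labels, to which the study's methods add cholesterol, insulin-transferrin-selenium and a collagen IV coating. No library received cholesterol without the cytokines, so the part of each supplement cannot be told apart. The study calls the 3 libraries of each group biological replicates. No label ties them to separate cultures, and the p-values measure the spread between these samples.

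Cells make cholesterol from acetyl-CoA in the endoplasmic reticulum, through mevalonate, the isoprenoid farnesyl pyrophosphate, squalene and lanosterol. When sterols in that membrane are scarce, the escort protein SCAP carries SREBP2 to the Golgi, where a pair of proteases releases a fragment that enters the nucleus and activates the synthesis genes, and when sterols are plentiful the INSIG proteins hold SCAP back. Cholesterol taken up from outside, including the myelin lipid and debris that microglia engulf, arrives in the lysosome and leaves it through NPC2 and NPC1.

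Most of the genes were lower under the optimized condition. At an adjusted p-value under 0.05 in the quasi-likelihood test of edgeR, adjusted by Benjamini-Hochberg across the 14618 genes tested, 17 of the 28 genes fell and 1 rose, against 15.2% of all genes tested that fell and 14.7% that rose. The median log2 fold change of the 28, optimized against control, was -0.82, beside 0.0079 over all genes tested. Of the 28 genes, 10 were called with a level of at most 50% of control, against 5.11% of all genes. In 17 of the 28 genes all 3 optimized libraries lay below all 3 control libraries, a pattern found in 22.5% of all genes, and in 3 they lay above, which 21.4% of all genes did. CPM are counts relative to the scaled total of the library, and values after ± beside a log2 fold change are standard errors with n = 3 per group. The 19 synthesis enzymes summed to 792 ± 12.1 CPM in the control libraries and 508 ± 36.4 in the optimized ones (mean ± SD, n = 3 each). Among these 19 enzymes 14 fell and none rose, with a median of -0.86. In bulk RNA, fewer cells of a type and less RNA per cell cannot be told apart.

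**Figure D1:**
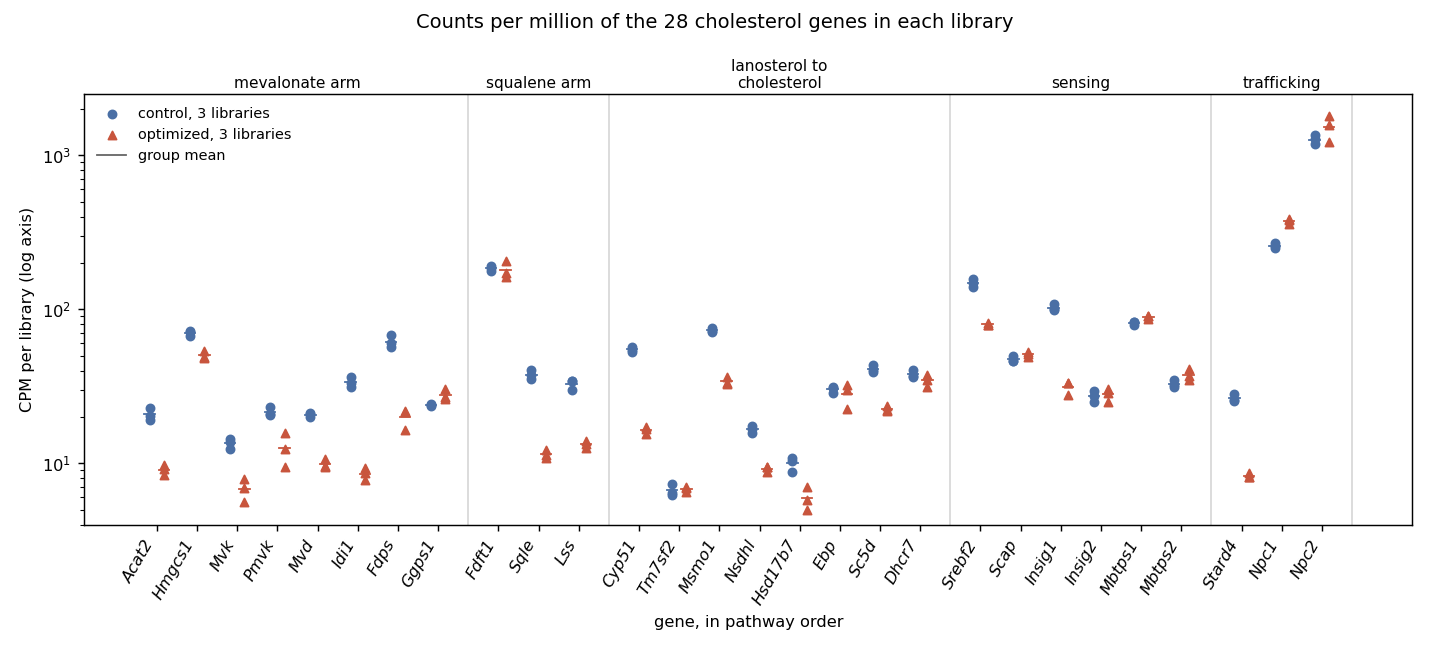
CPM of the 28 genes on a log axis in each of the 3 control (blue circles) and 3 optimized (red triangles) libraries, in pathway order, with a line at each group mean. The optimized libraries lie below the control libraries without overlap in 17 genes, for example Idi1, and above them in Ggps1, Mbtps1 and Npc1.

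The library totals ran from 20628148 to 27261839 counts. The 7 microglia genes reported made up 4083 to 4249 summed CPM in the control libraries and 5185 to 5250.3 in the optimized ones, with Cx3cr1, Tmem119, Itgam and P2ry12 higher, Csf1r and Aif1 lower and Ptprc not called, and Fcrls is not a symbol of the tables. Of the 6 astrocyte markers 1 fell (Aldh1l1), with 27.98 to 30.4 summed CPM in the control libraries and 18.8 to 21.4 in the optimized ones. Of the 7 oligodendrocyte markers 1 fell (Cnp), with 109.5 to 125 summed CPM in the control libraries and 99.6 to 117 in the optimized ones, and of the 6 neuron markers 1 rose (Nefl), with 3.07 to 4.72 summed CPM in the control libraries and 5.30 to 6.34 in the optimized ones and Syt1 and Snap25 under the filter on low counts. None of the 6 fibroblast and pericyte markers was called, and they held 22.1 to 28.6 summed CPM in the control libraries and 22.3 to 81.1 in the optimized ones. The part of these cells in the values below was not tested. Scaling by library size alone moved the median over all genes by -0.13 and called 3168 genes lower and 1513 higher, in place of 2218 and 2142, and 18 of the 28 genes lower (with Dhcr7) and 1 higher.

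In the mevalonate arm, which runs from acetyl-CoA to the isoprenoids, 7 of 8 genes fell and none rose, with a median of -1.03. Of all genes tested, 15.2% fell and 14.7% rose. The arm summed to 266 ± 9.55 CPM in the control libraries and 145 ± 7.55 in the optimized ones (mean ± SD, n = 3 each). Idi1 encodes the isomerase that makes dimethylallyl pyrophosphate, the starter unit of all isoprenoids, and lies at chr13:8935537-8942487, plus strand (GRCm39). It held 33.1, 31.3 and 36.5 CPM in control libraries 1 to 3 and 7.77, 9.37 and 8.61 CPM in optimized libraries 1 to 3, so every optimized library lay below every control library. Idi1 kept 25.5% of its control level, a log2 fold change of -1.97 ± 0.11, adjusted p = 1.3e-06, the largest decrease among the 28 genes. Fdps makes farnesyl pyrophosphate, the branch point from which sterols, ubiquinone, dolichol and prenyl anchors are built. It held 60.6, 56.5 and 67.9 CPM in control libraries 1 to 3 and 16.5, 21.6 and 22.0 CPM in optimized libraries 1 to 3, again without overlap, and its log2 fold change was -1.62 ± 0.13, adjusted p = 8.8e-06.

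Acat2, the cytosolic thiolase that condenses acetyl-CoA units, held 19.1 to 23.0 CPM in the control libraries and 8.38 to 9.71 in the optimized ones and changed by -1.20 ± 0.12, adjusted p = 3.9e-05. Mvk, Pmvk and Mvd act one after the other to phosphorylate mevalonate and decarboxylate the product. Mvk changed by -0.99 ± 0.15, adjusted p = 6.4e-04, Pmvk by -0.79 ± 0.16, adjusted p = 0.0051 and Mvd by -1.06 ± 0.10, adjusted p = 4.1e-05. All 3 fell, to 50.3% of control for Mvk, 58.0% for Pmvk and 47.8% for Mvd. Hmgcs1 makes HMG-CoA, from which mevalonate is formed. It held 71.5, 72.4 and 67.4 CPM in control libraries 1 to 3 and 48.9, 48.4 and 53.7 CPM in optimized libraries 1 to 3. Its groups did not overlap either, but the decrease was the smallest among the genes that fell, -0.48 ± 0.084, adjusted p = 0.0016.

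Ggps1 was the arm's exception. It takes farnesyl pyrophosphate away from sterol synthesis and lengthens it to geranylgeranyl pyrophosphate, the membrane anchor of many small GTPases. It held 23.4, 24.4 and 23.9 CPM in control libraries 1 to 3 and 30.3, 26.1 and 26.8 CPM in optimized libraries 1 to 3, so the optimized libraries lay above the control libraries. The change did not pass the test (0.21 ± 0.096, adjusted p = 0.13, 95% interval -0.053 to 0.48). Fdps, the enzyme just before it, thus fell, while Ggps1, at 116% of control, was not called. Ggps1 shares 257 exon bases with Arid4b on the opposite strand. Arid4b had 1.10 times its counts and a log2 fold change of 0.11, and the part of Arid4b reads was not tested.

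**Figure D2:**
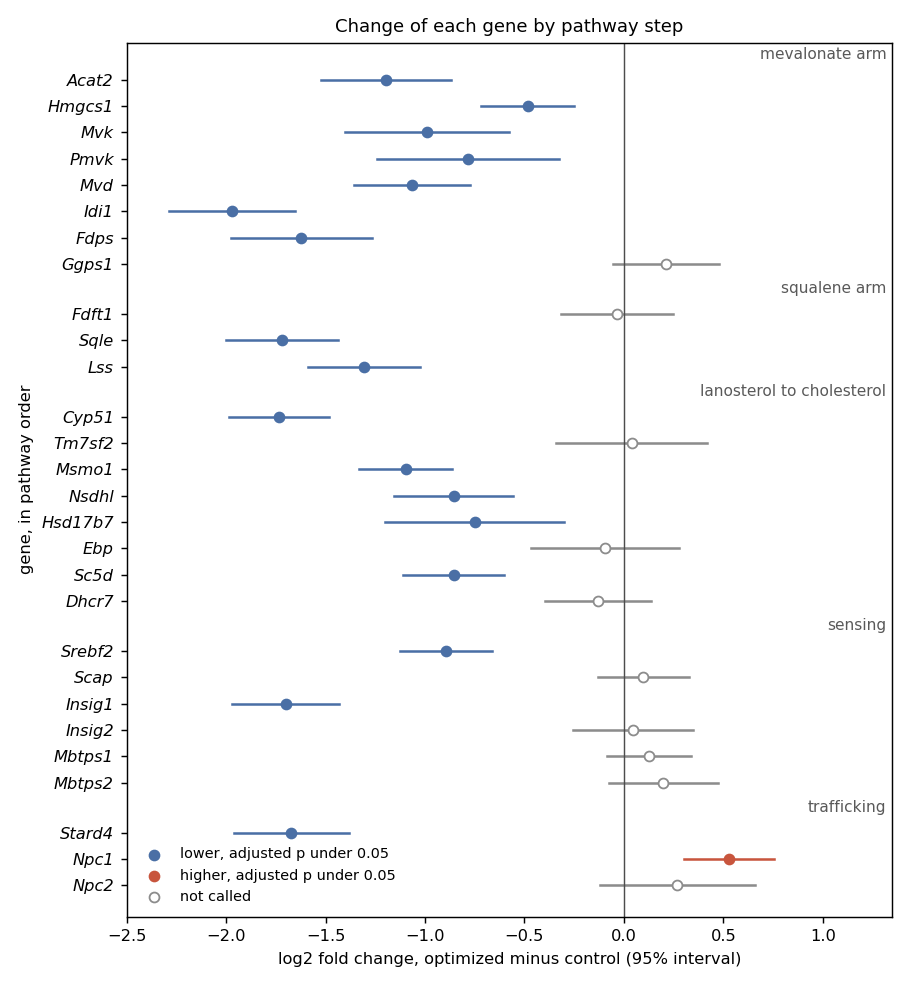
Log2 fold change (x axis, optimized minus control) with its 95% interval for the 28 genes in pathway order, filled where the adjusted p-value was under 0.05. The 17 genes that fell run from -1.97 for Idi1 to -0.48 for Hmgcs1, and Npc1 at 0.53 is the 1 gene that rose.

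The squalene arm holds the first enzymes whose products serve sterols alone, and 2 of its 3 genes fell, beside 15.2% of all genes. Sqle, the squalene epoxidase and one of the enzymes that limit the rate of synthesis, held 35.1, 37.6 and 40.1 CPM in control libraries 1 to 3 and 12.1, 11.3 and 10.8 CPM in optimized libraries 1 to 3. The groups did not overlap, and Sqle fell to 30.3% of control, -1.72 ± 0.10, adjusted p = 1.4e-06. Lss, which folds the epoxide into lanosterol, held 30.1 to 34.5 CPM in the control libraries and 12.6 to 13.9 in the optimized ones and changed by -1.31 ± 0.10, adjusted p = 8.2e-06. Fdft1, the squalene synthase between Fdps and Sqle, did not pass the test. It held 192, 184 and 178 CPM in control libraries 1 to 3 and 163, 206 and 172 CPM in optimized libraries 1 to 3, and the control and optimized libraries overlapped. Its log2 fold change was -0.034 ± 0.10, adjusted p = 0.84, 95% interval -0.32 to 0.25, and 0.036 without optimized library 1.

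The level of Fdft1 carries a limit that the 2 other genes of the arm do not share to this extent. At chr14:63382189-63417027, minus strand, it shares 1184 exon bases with Ctsb on the opposite strand, the gene of the lysosomal protease cathepsin B. Ctsb had 96.4 times as many counts as Fdft1 and a log2 fold change of 0.059. The FPKM values of Fdft1 imply a gene length of 10420 bases, against 4779 exon bases in GENCODE M39. The strand setting of the counting is not given, and a share of Ctsb reads in the Fdft1 count was not tested. Sqle overlaps Washc5, a subunit of an endosomal complex, by 470 exon bases. Washc5 had 4.64 times the counts of Sqle and also fell, but by less, -0.31 with an adjusted p of 0.017 in edgeR.

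From lanosterol to cholesterol, 5 of 8 genes fell and none rose, beside 15.2% and 14.7% of all genes, with a median of -0.80. The sums were 270.2 ± 6.44 CPM in the control libraries and 158 ± 9.001 in the optimized ones (mean ± SD, n = 3 each). Cyp51, the cytochrome P450 that removes the first methyl group of lanosterol, held 53.0, 57.3 and 54.2 CPM in control libraries 1 to 3 and 17.2, 16.7 and 15.5 CPM in optimized libraries 1 to 3. The groups did not overlap, and Cyp51 fell to 30.1% of control, -1.73 ± 0.091, adjusted p = 7.0e-07. The next methyl groups are removed by a complex that contains the products of Msmo1, Nsdhl and Hsd17b7. Msmo1, the oxidase of that complex, held 71.0 to 75.2 CPM in the control libraries and 32.6 to 36.2 in the optimized ones and changed by -1.10 ± 0.084, adjusted p = 7.3e-06. Nsdhl, its decarboxylating dehydrogenase, changed by -0.86 ± 0.11, adjusted p = 2.1e-04, and Hsd17b7, its ketoreductase, by -0.75 ± 0.16, adjusted p = 0.0060. Cyp51, Msmo1, Nsdhl and Hsd17b7, the 4 genes of demethylation, therefore all fell. Sc5d, which adds a double bond to the sterol ring, held 39.1 to 43.6 CPM in the control libraries and 22.0 to 23.7 in the optimized ones and changed by -0.86 ± 0.091, adjusted p = 7.2e-05.

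Tm7sf2, Ebp and Dhcr7 did not pass the test. Tm7sf2, the sterol reductase that acts right after Cyp51 and of which the lamin B receptor is a functional relative, had the lowest mean count of the arm and held 6.22 to 7.34 CPM in the control libraries and 6.53 to 7.06 in the optimized ones. Its log2 fold change was 0.039 ± 0.14, adjusted p = 0.87, -0.015 without control library 3 and -0.094 with scaling by library size alone. It shares 532 exon bases on the same strand with Vps51, which had 8.20 times its counts. Vps51 itself fell, by -0.29 with an adjusted p of 0.037 in edgeR, and the part of Vps51 reads was not tested. Ebp, the isomerase that shifts the double bond of the sterol ring, held 28.5, 31.4 and 31.0 CPM in control libraries 1 to 3 and 22.5, 32.5 and 30.1 CPM in optimized libraries 1 to 3. Optimized library 1 was the lowest of the 6, and the log2 fold change of Ebp was -0.095 ± 0.13, adjusted p = 0.66, with it and 0.047 without it. Dhcr7, which makes cholesterol from its immediate precursor, held 36.4 to 40.2 CPM in the control libraries and 31.5 to 37.2 in the optimized ones, overlapping between groups. Its log2 fold change was -0.13 ± 0.096, adjusted p = 0.36, 95% interval -0.40 to 0.14. Under scaling by library size alone it reached -0.26 with an adjusted p of 0.041 in the same edgeR test.

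Among the genes that sense sterols, the factor and 1 of its INSIG brakes fell, while the escort, the proteases and the other brake did not pass the test. Srebf2, at chr15:82031382-82093201, plus strand, encodes SREBP2 and is itself one of the targets of that factor. It held 158, 139 and 148 CPM in control libraries 1 to 3 and 79.2, 81.8 and 78.8 CPM in optimized libraries 1 to 3. The groups did not overlap, and Srebf2 fell to 53.8% of control, -0.89 ± 0.083, adjusted p = 2.6e-05. Insig1, at chr5:28276315-28283668, plus strand, is the INSIG gene that SREBP activates. It held 98.6, 99.9 and 108 CPM in control libraries 1 to 3 and 33.0, 33.4 and 27.96 CPM in optimized libraries 1 to 3. Insig1 fell to 30.8% of control, -1.70 ± 0.098, adjusted p = 1.2e-06, among the 5 largest decreases of the 28 genes.

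Insig2, whose product binds SCAP as Insig1 does but whose gene is not known as an SREBP target, held 24.9, 27.3 and 29.4 CPM in control libraries 1 to 3 and 25.1, 30.4 and 28.8 CPM in optimized libraries 1 to 3. Its groups overlapped, and its log2 fold change was 0.046 ± 0.11, adjusted p = 0.80, 95% interval -0.26 to 0.35. The sign of the Insig2 value turned without control library 1 (-0.018), without optimized library 2 (-0.024) and with library size alone (-0.086). On the scale of FPKM, which is per gene length, Insig1 stood 10.5, 9.69 and 9.75 times above Insig2 in control libraries 1 to 3. In optimized libraries 1 to 3 the ratio was 3.48, 2.91 and 2.57. On this scale Insig1 was thus the more abundant of the pair in all 6 libraries, with a smaller lead in each optimized one. The size of the lead rests on the gene lengths that the FPKM values imply. These were 2648 bases for Insig1 and 7015 for Insig2, against 4882 and 5931 exon bases in GENCODE M39. In raw counts, optimized library 3 held 578 for Insig1 and 596 for Insig2.

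**Figure D3:**
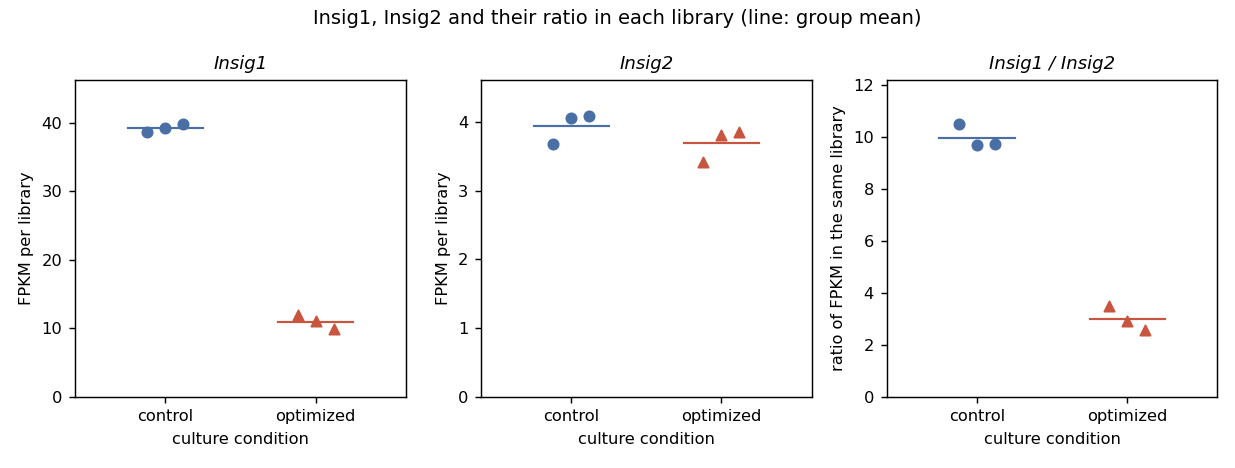
FPKM (y axes, from 0) of Insig1 and of Insig2 and the ratio of Insig1 to Insig2 in each library of the 2 groups, with a line at the group mean. Insig1 and the ratio separate the groups, with mean ratios of 9.98 in control and 2.99 in optimized libraries, and Insig2 overlaps.

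Scap, the escort, held 50.1, 46.5 and 46.5 CPM in control libraries 1 to 3 and 48.9, 51.5 and 52.7 CPM in optimized libraries 1 to 3, overlapping between groups. Its log2 fold change was 0.098 ± 0.083, adjusted p = 0.43. Mbtps1, the site-1 protease that makes the first cut in SREBP2, held 83.3, 79.7 and 83.0 CPM in control libraries 1 to 3 and 91.0, 86.6 and 90.9 CPM in optimized libraries 1 to 3. The optimized libraries lay above the control ones, with a log2 fold change of 0.13 ± 0.076, adjusted p = 0.26. Mbtps2, the site-2 protease that makes the second cut, held 31.2 to 35.0 CPM in the control libraries and 34.6 to 41.2 in the optimized ones, with a log2 fold change of 0.20 ± 0.099, adjusted p = 0.17. The machinery that carries and cuts SREBP2 thus showed no called change, with 95% intervals of -0.13 to 0.33 for Scap, -0.086 to 0.34 for Mbtps1 and -0.077 to 0.47 for Mbtps2. With library size alone, Scap came to -0.033 and Mbtps1 to -0.00027.

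The 3 trafficking genes went different ways. Stard4, a soluble carrier that brings sterol to the endoplasmic reticulum and is an SREBP2 target, held 25.6, 28.3 and 25.6 CPM in control libraries 1 to 3 and 8.10, 8.13 and 8.71 CPM in optimized libraries 1 to 3. The groups did not overlap, and Stard4 fell to 31.4% of control, -1.67 ± 0.10, adjusted p = 1.9e-06. Npc1, the lysosomal membrane protein that exports cholesterol, held 269.5, 259 and 249 CPM in control libraries 1 to 3 and 383, 379 and 359 CPM in optimized libraries 1 to 3. All 3 optimized libraries lay above all 3 control libraries, and Npc1 rose 1.44-fold, 0.53 ± 0.081, adjusted p = 7.6e-04. Npc1 shares 1086 exon bases with Rmc1 on the opposite strand, which had 0.297 times its counts and a log2 fold change of 0.34, and the part of Rmc1 reads was not tested.

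Npc2, the soluble lysosomal protein that hands cholesterol to NPC1, had the highest level of the 28 genes. It held 1177, 1271 and 1351 CPM in control libraries 1 to 3 and 1223, 1788 and 1568 CPM in optimized libraries 1 to 3, and optimized library 1 lay among the control libraries. Its log2 fold change was 0.27 ± 0.14, adjusted p = 0.19, 95% interval -0.12 to 0.66. Without optimized library 1, Npc2 passed the test, with 0.41 and an adjusted p of 0.0041 from edgeR. With all libraries it passed in edgeR with a gene length trend removed and a replicate block (0.26, adjusted p = 0.048). Its call thus depends on that library and on the model.

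Levels of different genes were compared per gene length, as FPKM. The gene lengths that these values imply ran from 0.16 times the GENCODE M39 exon bases for Mvk to 2.18 times for Fdft1. The ranks and ratios between genes depend on these lengths. Npc2, at a mean of 394 FPKM in control and 429.7 FPKM in optimized libraries, and Npc1, at 46.9 and 61.4 FPKM, ranked first and second in both conditions. Below these lysosomal genes the order changed. Fdps went from rank 3 to rank 8 of 28 as its mean went from 42.8 to 12.6 FPKM, Insig1 from rank 4 to rank 10 and Idi1 from rank 13 to rank 25. Mbtps1, the site-1 protease, stood at 17.5 FPKM in control and 17.3 FPKM in optimized libraries and went from rank 9 to rank 3 as other genes fell below it. Among the 19 enzymes the highest mean FPKM was 21.0 times the lowest in control and 14.6 times in optimized libraries.

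**Figure D4:**
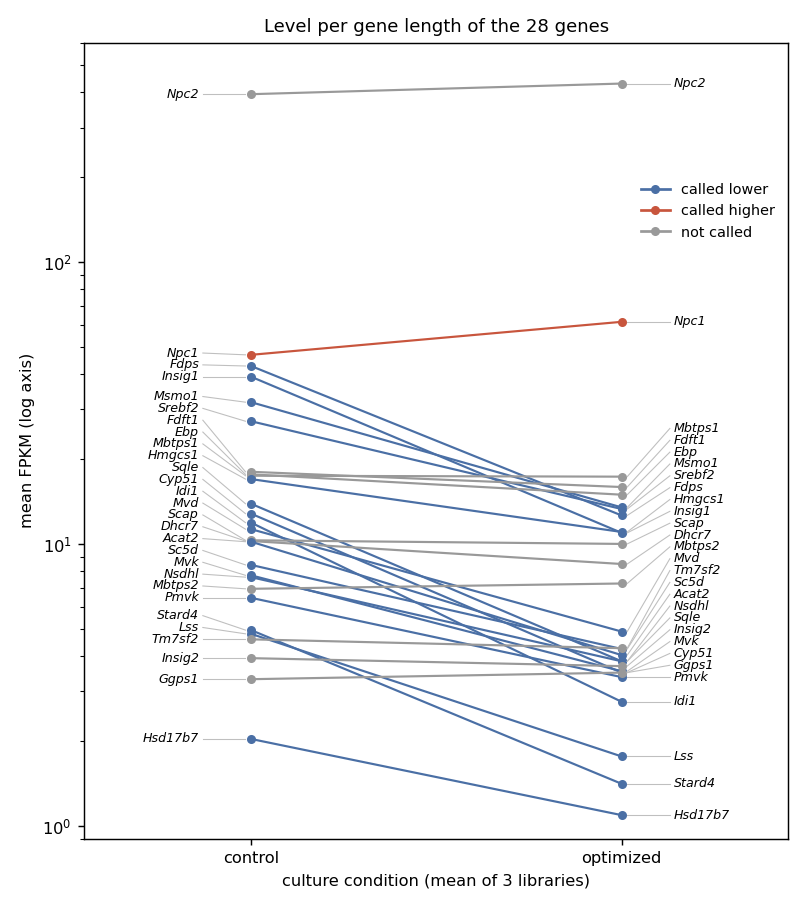
Mean FPKM of the 28 genes (log axis) in the control and the optimized condition, 3 libraries each, with 1 line per gene coloured by call. Npc2 and Npc1 stay on top, while Fdps falls from 42.8 to 12.6 FPKM.

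The decrease was of similar size in each optimized library. Relative to the control mean, the median log2 ratio of the 28 genes was -0.81 in optimized library 1, -0.70 in library 2 and -0.81 in library 3. In the control libraries it was -0.034, -0.016 and 0.064. Overlap with other genes touched part of the set, since 15 of the 28 genes share exon bases in GENCODE M39 with another listed gene, and for 10 of them that partner has at least 0.2 of their counts. These 10 were Acat2, Mvd, Ggps1, Fdft1, Sqle, Cyp51, Tm7sf2, Nsdhl, Scap and Npc1. Among the other 18 genes 12 fell and none rose, beside 15.2% and 14.7% of all genes, with a median of -0.82.

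SREBP2 binds sterol regulatory elements that usually stand beside a CCAAT box, which binds NF-Y. RefSeq promoter windows of 250 bases before to 50 after a transcript start were given for 23 of the 28 genes, 29 windows in all, and each matched GRCm39 once. Motifs were searched on both strands. CCAAT was found in 13 of the 15 windows of genes that fell (86.7%) and in 6 of the 14 windows of the other genes (42.9%), against 37.4% of all 32851 windows. Counted by gene, it was found in 13 of 14 genes that fell and in 6 of 9 others, of which Dhcr7, Insig2 and Scap have several windows. The box GGGCGG, which binds SP1, was found in 13 of 15 and in 10 of 14 windows, against 35.7% of all windows and 58.5% of those of the genes tested. The element TCACNCCAC was found in the window of Hmgcs1 alone, 1 of 29, against 1.24% of all windows, and the E-box TCACGTGA in none of the 29, against 0.974%. The shorter CACNCCAC, which overlaps TCACNCCAC and was added after the data were seen, was found in Acat2, Hmgcs1 and Insig1, against 6.24% of all windows. A match is a string of letters, not a site that was tested.

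The stretches below, from RefSeq and placed on GRCm39, show how these boxes lie in 4 genes that fell and in Ebp and Mbtps2, which were not called. Each begins 150 bases before the transcript start and stops there or at the gene's first exon in GENCODE M39, and capitals mark CCAAT on either strand and TCACNCCAC. Hmgcs1 is at chr13:120151737-120151886 on the plus strand, Sc5d at chr9:42175606-42175746 on the minus strand, Hsd17b7 at chr1:169796814-169796924 on the minus strand, Srebf2 at chr15:82031320-82031381 on the plus strand, Ebp at chrX:8059796-8059901 on the minus strand and Mbtps2 at chrX:156381712-156381861 on the minus strand. Non-coding genes of GENCODE M39 have exon bases in 5 of these regions, Gm60502 at Hmgcs1, Gm10690 at Sc5d, 3110045C21Rik at Hsd17b7, Gm56711 at Srebf2 and Gm61749 at Mbtps2.
Hmgcs1: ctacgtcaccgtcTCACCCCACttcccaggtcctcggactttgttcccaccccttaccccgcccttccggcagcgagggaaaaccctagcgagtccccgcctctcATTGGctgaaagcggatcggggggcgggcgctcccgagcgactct
Sc5d: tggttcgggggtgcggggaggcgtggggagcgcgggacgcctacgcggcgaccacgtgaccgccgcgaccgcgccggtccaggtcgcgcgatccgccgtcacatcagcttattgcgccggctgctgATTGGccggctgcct
Hsd17b7: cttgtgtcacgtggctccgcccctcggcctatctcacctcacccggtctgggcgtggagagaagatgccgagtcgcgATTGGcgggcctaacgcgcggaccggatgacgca
Srebf2: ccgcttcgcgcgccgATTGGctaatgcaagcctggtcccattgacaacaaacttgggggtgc
Ebp: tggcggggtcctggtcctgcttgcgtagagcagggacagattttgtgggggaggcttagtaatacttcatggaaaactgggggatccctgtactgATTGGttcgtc
Mbtps2: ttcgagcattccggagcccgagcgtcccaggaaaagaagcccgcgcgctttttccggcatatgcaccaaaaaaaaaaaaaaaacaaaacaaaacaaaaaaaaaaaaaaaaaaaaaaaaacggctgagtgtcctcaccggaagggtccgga

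Hmgcs1 holds its element TCACCCCAC 137 bases before the start and a CCAAT box, read on the other strand, 45 bases before it. In Sc5d and Hsd17b7 the box lies in the same orientation, 24 bases before the start of Sc5d. Srebf2 has its box 135 bases before the start. Ebp, which was not called, holds a box 55 bases before the start, and the window of Mbtps2 holds neither CCAAT nor TCACNCCAC.

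Other genes of the pathway were taken from 5 lists set by function. Of 73 such genes 72 were tested. Of these, 20 fell (27.8%) and 8 rose (11.1%), beside 15.2% and 14.7% of all genes, with a median of -0.12. Isoprenoid users are 16 genes that act in or around the making of prenyl anchors, ubiquinone, dolichol and related products. Among them 1 gene fell and none rose, with a median of -0.078. The share that fell was 6.25%, beside 15.2% of all genes, and 14.7% of all genes rose. The gene was Pdss1, a subunit of the synthase that makes the ubiquinone tail (-0.82 ± 0.25, adjusted p = 0.030).

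The 16 partners and turnover genes pass electrons to the enzymes of the pathway or control the stability of its proteins. Among them 4 fell (25%) and 1 rose (6.25%), beside 15.2% and 14.7% of all genes (median -0.22). Por, the reductase that feeds Cyp51 and Sqle with electrons, held 274 to 301 CPM in the control libraries and 122 to 152 in the optimized ones and changed by -1.04 ± 0.099, adjusted p = 3.2e-05. Cyb5a, the cytochrome b5 that serves the methyl oxidase and Sc5d, changed by -0.99 ± 0.15, adjusted p = 5.8e-04, and Erlin1, an endoplasmic reticulum scaffold that acts in the degradation of sterol-regulated proteins, by -0.59 ± 0.083, adjusted p = 4.2e-04. Rnf145, a ubiquitin ligase that acts on SCAP, rose by 0.40 ± 0.086, adjusted p = 0.0061. Por and Cyb5a, both electron donors of sterol steps, fell with the enzymes they serve.

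Sterol transport and esterification held 5 genes of 18 that fell (27.8%) and 1 that rose (5.56%), with a median of -0.090. Of all genes 15.2% fell and 14.7% rose. Soat2, an acyltransferase that stores cholesterol as esters, changed by -1.28 ± 0.30, adjusted p = 0.0092 at 1.63 to 2.82 CPM in the control libraries and 0.809 to 1.04 in the optimized ones. Lipa, the lysosomal acid lipase that frees cholesterol from the esters of engulfed lipid, held 1104 to 1167 CPM in the control libraries and 657 to 703 in the optimized ones and changed by -0.74 ± 0.088, adjusted p = 1.5e-04. Lipa thus fell while Npc1, which acts after it in the lysosome, rose. Osbpl8, an oxysterol-binding protein at membrane contact sites, changed by -0.79 ± 0.15, adjusted p = 0.0025, and Gramd1a, which carries cholesterol from the plasma membrane to the endoplasmic reticulum, rose by 0.79 ± 0.087, adjusted p = 8.7e-05.

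Fatty acid genes under SREBP1 are controlled by the same SCAP and INSIG proteins. Here 8 of 13 fell (61.5%) and 2 rose (15.4%), beside 15.2% and 14.7% of all genes (median -0.47). Fads2, which desaturates polyunsaturated fatty acids, held 21.0, 18.6 and 21.8 CPM in control libraries 1 to 3 and 4.88, 4.77 and 5.51 CPM in optimized libraries 1 to 3 and changed by -2.02 ± 0.12, adjusted p = 1.8e-06. Elovl6, an elongase, changed by -1.32 ± 0.30, adjusted p = 0.0082 and Scd1, the desaturase that makes oleate, by -1.27 ± 0.25, adjusted p = 0.0037. Against these, Acaca, which makes malonyl-CoA, rose by 0.63 ± 0.13, adjusted p = 0.0045 and Scd2, another stearoyl-CoA desaturase, by 0.41 ± 0.087, adjusted p = 0.0053. Srebf1, the gene of SREBP1, had a log2 fold change of 0.12 ± 0.083, adjusted p = 0.32, and it was chosen after its value was seen.

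The LXR receptors answer to oxysterols, which rise when cells are loaded with cholesterol. The list of 9 LXR genes holds receptors, enzymes that make oxysterols, and targets, so its counts do not measure the response of targets alone. In it 2 genes fell (22.2%) and 4 rose (44.4%), beside 15.2% and 14.7% of all genes (median 0.17). Nr1h3, the gene of the receptor LXR alpha, held 10.7, 8.89 and 11.2 CPM in control libraries 1 to 3 and 2.23, 3.11 and 2.76 CPM in optimized libraries 1 to 3 and changed by -1.92 ± 0.17, adjusted p = 2.3e-05. Cyp27a1, which makes an oxysterol in mitochondria, changed by -1.59 ± 0.11, adjusted p = 4.3e-06. Ch25h, which makes an oxysterol that blocks SREBP processing, held 33.6, 32.1 and 39.7 CPM in control libraries 1 to 3 and 207, 241 and 259 CPM in optimized libraries 1 to 3 and rose by 2.74 ± 0.12, adjusted p = 2.3e-07. Mylip, a ubiquitin ligase and LXR target, rose by 0.90 ± 0.076, adjusted p = 1.4e-05 and Smpdl3a, a phosphodiesterase and LXR target, by 0.90 ± 0.11, adjusted p = 1.4e-04. The sterol exporters Abca1 (-0.12 ± 0.15, adjusted p = 0.59) and Abcg1 (0.17 ± 0.083, adjusted p = 0.15), also LXR targets and chosen after their values were seen, did not pass the test. The list was split in direction.

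**Figure D5:**
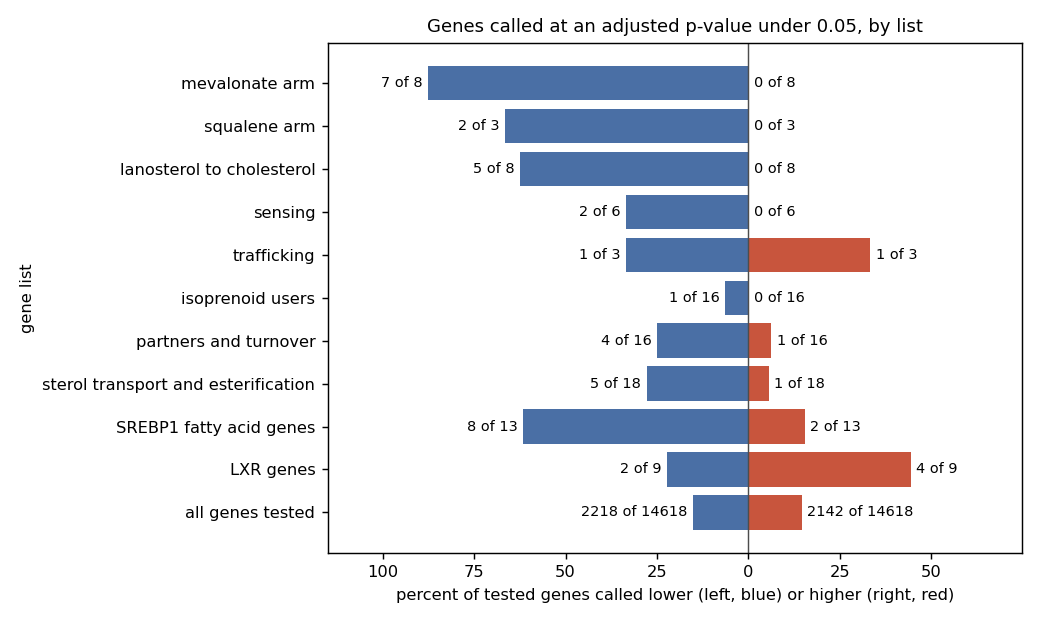
Share of tested genes called lower (left, blue) or higher (right, red) at an adjusted p-value under 0.05, in percent, for each arm, for the other pathway lists and for all genes tested, with the counts beside each bar. The mevalonate arm has 7 of 8 genes lower, and among all 14618 genes 15.2% were lower and 14.7% higher.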

How the data were processed

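RNA-seq was measured in 6 microglia libraries, grouped by their labels. According to the submitters' notes, the authors aligned read pairs to mm39 (GRCm39) using HISAT2 and counted with featureCounts in Galaxy. They deposited raw counts per gene and FPKM values for 41079 genes. Versions, annotation and strand setting are not given in the sources used here, so reads of overlapping genes cannot be assigned. Each deposited FPKM value is the count over a gene constant and a library constant.

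The test was edgeR 4.0.16 in R 4.3.3 (filterByExpr, TMM, glmQLFit and glmQLFTest, no covariates), with p-values adjusted by Benjamini-Hochberg over 14618 genes and a threshold of 0.05. CPM use the TMM-scaled library sizes. The standard error is the log2 fold change over the square root of F, and 95% intervals use 4 residual degrees of freedom. Replicate counts differed beyond sampling noise, so each library counts once. The steps were tested on simulated data.

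Other settings were DESeq2 1.42.0, relative log expression factors, scaling by library size alone, other count filters (none, or at least 10 counts in every library), a threshold of 0.01, a replicate block, removal of a gene length trend, limma 3.58.1 on log2(FPKM + 1) and log2(FPKM + 0.1), which understates the change of low genes, and leaving out each library. The setting without overlapping genes and the motif CACNCCAC were added after the data were seen. The members and lists were chosen with earlier results of these data known. All 28 members are named, and of each other pathway list at most the 3 highest and 3 lowest log2 fold changes among called genes. One listed marker gene is not reported here. Positions and exon overlaps are from GENCODE M39 on GRCm39, and promoter windows from RefSeq (GRCm38.p6), matched exactly to GRCm39.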

Additional observations from a re-analysis of the deposited data

How the results depend on the processing

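The 17 genes called lower and the call of Npc1 kept direction and threshold under all 18 other settings, and 20 of the 28 genes gave the same result under each. The values that turned sign belonged to genes that were not called. With library size alone they were -0.094 for Tm7sf2, -0.033 for Scap, -0.086 for Insig2 and -0.00027 for Mbtps1. limma on log2(FPKM + 1), with or without a minimum mean FPKM of 1, gave -0.082, -0.038, -0.075 and -0.012 for the same genes, and on log2(FPKM + 0.1) -0.097, -0.041, -0.092 and -0.013. Insig2 came to -0.0079 with a gene length trend removed. Leaving out each library in turn, Insig2 ranged from -0.024 to 0.12 (below 0 at -0.018 without control 1 and at its lowest without optimized 2), Tm7sf2 from -0.015 to 0.11 (lowest without control 3), Fdft1 from -0.15 to 0.036 and Ebp from -0.21 to 0.047 (both highest without optimized 1). The median of the 28 genes was -0.95 under library size alone and -0.95 in the limma fit on log2(FPKM + 0.1). Leaving out each library gave 17 genes lower each time, 1 to 2 higher (2 without optimized library 1, with Npc2) and medians of -0.87 to -0.77. With limma on log2(FPKM + 0.1), 5 other pathway genes were higher in place of 8. Of the 18 members without an overlapping gene of at least 0.2 of their counts, 0 were higher in the main edgeR fit. Npc1, the 1 gene that rose, was among those left out. Dhcr7 was called lower in 3 settings (18 genes in all), library size alone and both limma fits on log2(FPKM + 1). The share of calls that were higher, 49.1% of all calls, was 32.3% with library size alone and between 28.8% and 32.8% in the limma fits. The cause of these shifts was not tested.

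With the replicate number as a block the fit called 17 members lower and 1 higher, and 2523 genes lower and 2401 higher of all. Adding the block to the removal of the length trend called 2 members higher (Npc2, 0.26) and gave -0.013 for Insig2. Same-numbered libraries correlated in their deviations from the group means at 0.40, -0.034 and 0.24, and differently numbered ones at -0.43 to 0.34. With 3 libraries per group these values cannot decide whether the numbers pair the samples. Pmvk, Hsd17b7 and Mvk had the widest 95% intervals of the 28.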
